A study of Homo sapiens with 19 samples.

Results

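SCIRT knockdown spheres are 6 of the 19 libraries of this series, compared with the 3 control libraries sequenced beside them, so that 9 libraries were used here. They were found by their titles and by the treatment each sample is labelled with. All 9 came from MDA-MB-231, an established triple-negative human breast cancer line with mesenchymal features, that had been given siRNA by reverse transfection and then grown floating for 48 h in DMEM/F12 with B27 (diluted 1 in 50), EGF and FGF (20 ng/ml each). The groups were siNC, a control siRNA, and siSCIRT#1 and siSCIRT#2, a pair of siRNAs against SCIRT, with 3 libraries each. The other 10 libraries of the series came from cells with siEZH2 and their own siNC, and from untransfected adherent cells and spheres. Every group here is 1 cell line. Whether the replicates of a group were grown apart is not stated. A p-value here speaks of the spread among libraries within the groups, estimated from all 9 together, and that spread may be technical.

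SCIRT is a long noncoding RNA, listed in the table by its clone name RP5-1120P11.1 and identifier ENSG00000237686.2. It has been studied in breast tumour-initiating cells, which are grown as spheres because floating culture in growth factor medium favours cells able to renew themselves. EZH2, the methyltransferase of Polycomb repressive complex 2 (PRC2), FOXM1, a transcription factor of the mitotic program, and SOX2, a stemness factor, have been linked to it there. The comparison asks which RNAs differ when SCIRT is lowered.

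In dividing cells, genes of DNA synthesis are switched on at the border of G1 and S by E2F factors, and genes of mitosis later, in G2, through MYBL2, FOXM1 and the DREAM complex. DREAM targets often hold a short element called CHR (cell cycle genes homology region) downstream of CCAAT boxes, and E2F sites have their own letters. The windows below are the promoters of genes that fell in the knockdowns, shown because these letters recur among them. They run from 250 bases before to 50 bases after the RefSeq gene start (GRCh38.p14) and are printed 5′ to 3′ on the strand of the gene. Capitals mark CHR (TTTGAA or TTCGAA) and CCAAT letters of either strand in KIF23, which encodes a kinesin of the dividing cell's midbody, in BUB1, a spindle checkpoint kinase, in CCNB2, a mitotic cyclin, and in NEK2, a centrosome kinase.
KIF23, chr15:69414099-69414398, plus strand: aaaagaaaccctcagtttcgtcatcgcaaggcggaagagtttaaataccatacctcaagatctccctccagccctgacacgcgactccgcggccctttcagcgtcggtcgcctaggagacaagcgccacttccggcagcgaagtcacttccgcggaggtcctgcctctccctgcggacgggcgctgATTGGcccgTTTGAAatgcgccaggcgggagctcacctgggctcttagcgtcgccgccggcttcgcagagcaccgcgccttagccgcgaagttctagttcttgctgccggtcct
BUB1, chr2:110678014-110678313, minus strand: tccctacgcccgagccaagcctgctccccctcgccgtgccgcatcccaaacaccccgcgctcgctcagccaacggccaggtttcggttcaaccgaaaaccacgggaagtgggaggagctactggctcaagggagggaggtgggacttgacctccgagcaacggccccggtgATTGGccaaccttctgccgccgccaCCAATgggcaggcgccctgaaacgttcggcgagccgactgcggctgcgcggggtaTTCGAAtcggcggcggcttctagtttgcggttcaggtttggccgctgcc
CCNB2, chr15:59104896-59105195, plus strand: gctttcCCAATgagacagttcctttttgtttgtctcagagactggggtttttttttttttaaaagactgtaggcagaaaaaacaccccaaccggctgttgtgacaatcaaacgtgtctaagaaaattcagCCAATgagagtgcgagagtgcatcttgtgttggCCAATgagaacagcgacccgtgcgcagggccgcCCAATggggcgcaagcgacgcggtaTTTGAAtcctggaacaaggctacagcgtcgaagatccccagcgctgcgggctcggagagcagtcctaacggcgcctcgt
NEK2, chr1:211675572-211675871, minus strand: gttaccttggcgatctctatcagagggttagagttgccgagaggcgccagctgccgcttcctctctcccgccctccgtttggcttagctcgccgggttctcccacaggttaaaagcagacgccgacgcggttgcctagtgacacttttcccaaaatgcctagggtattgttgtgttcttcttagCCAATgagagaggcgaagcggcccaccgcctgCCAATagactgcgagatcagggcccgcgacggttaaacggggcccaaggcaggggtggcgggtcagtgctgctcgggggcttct
In MCM3, a subunit of the helicase that licenses replication origins, and in E2F1, capitals mark E2F-type (TTTCCCGC, TTTGGCGC or TTTCGCGC) and CCAAT letters of either strand.
MCM3, chr6:52284693-52284992, minus strand: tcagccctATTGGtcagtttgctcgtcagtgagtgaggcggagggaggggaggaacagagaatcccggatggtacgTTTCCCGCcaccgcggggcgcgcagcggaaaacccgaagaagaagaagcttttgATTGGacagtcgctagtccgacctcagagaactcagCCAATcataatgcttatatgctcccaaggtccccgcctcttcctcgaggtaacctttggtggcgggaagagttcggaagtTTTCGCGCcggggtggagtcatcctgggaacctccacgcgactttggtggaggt
E2F1, chr20:33686336-33686635, minus strand: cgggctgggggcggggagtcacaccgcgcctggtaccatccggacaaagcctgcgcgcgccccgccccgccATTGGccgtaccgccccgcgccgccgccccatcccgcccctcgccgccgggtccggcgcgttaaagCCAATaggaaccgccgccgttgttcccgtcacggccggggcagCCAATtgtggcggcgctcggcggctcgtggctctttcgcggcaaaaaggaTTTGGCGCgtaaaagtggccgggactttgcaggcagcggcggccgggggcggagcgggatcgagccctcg
In KIF23 the CHR letters began 55 bases before the gene start and CCAAT letters 64 bases before it, and in CCNB2 the CHR letters began 29 bases before the start with CCAAT letters at 54, 87, 120 and 244. The NEK2 window held CCAAT letters at 34 and 66 bases before the start and no CHR letters, which says only that these letters are not in this window.

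The siNC libraries held 57218620 to 62218847 reads and the knockdown libraries 38635418 to 56217855, so every knockdown library was shallower than every control, and the lowest was siSCIRT#2 replicate 2. The values compared are normalized for depth, and the part of this gap in the results was not tested. The share of reads from mitochondrial genes was 6.11% to 6.60% with siNC and 5.54% to 6.11% with the siRNAs against SCIRT. Of the markers fixed for the line, all 8, among them VIM, CD44 and AXL, passed the filter. The hormone receptor genes ESR1 and PGR, which the line lacks, did not pass it. The other 6 of the 8 luminal markers, among them ERBB2, XBP1 and KRT19, did. Of 10 markers of blood, endothelial, stromal and liver cells, 6 passed the filter and none was called. The whole list summed to 1299 to 1478 normalized counts with siNC and 1207 to 1382 in the knockdowns, mostly COL1A1, and CD3E, HBB and PECAM1 were not listed.

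SCIRT RNA was lowered by both siRNAs, to less than the level in any control library. It stood at 264, 287 and 256 normalized counts with siNC, at 121, 112 and 127 with siSCIRT#1 and at 159, 105 and 117 with siSCIRT#2. All 6 knockdown libraries lay below the 3 controls. The mean log2 fold change was -1.13 ± 0.14 (standard error of the limma fit, adjusted p = 8.5e-05). Throughout, fold changes are on the scale of log2(normalized count + 1), n is 3 libraries per group for siNC, siSCIRT#1 and siSCIRT#2, and adjusted p-values are from limma with Benjamini-Hochberg adjustment over all genes tested. The kit does not mark strand, so reads of SCIRT and of the overlapping C6orf223 cannot be told apart. C6orf223 was at 75.8, 88.2 and 58.2 normalized counts with siNC and 28.2 to 52.3 in the knockdowns, and siSCIRT#2 alone did not pass for it (adjusted p = 0.138). Of 17 genes listed around SCIRT on the same chromosome arm, SCIRT itself fell and VEGFA rose. The remaining 15 were not called with both siRNAs and had log2 fold changes from -0.83 for C6orf223 to 0.17 for SLC35B2, which encodes a nucleotide sugar transporter.

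**Figure D1:**
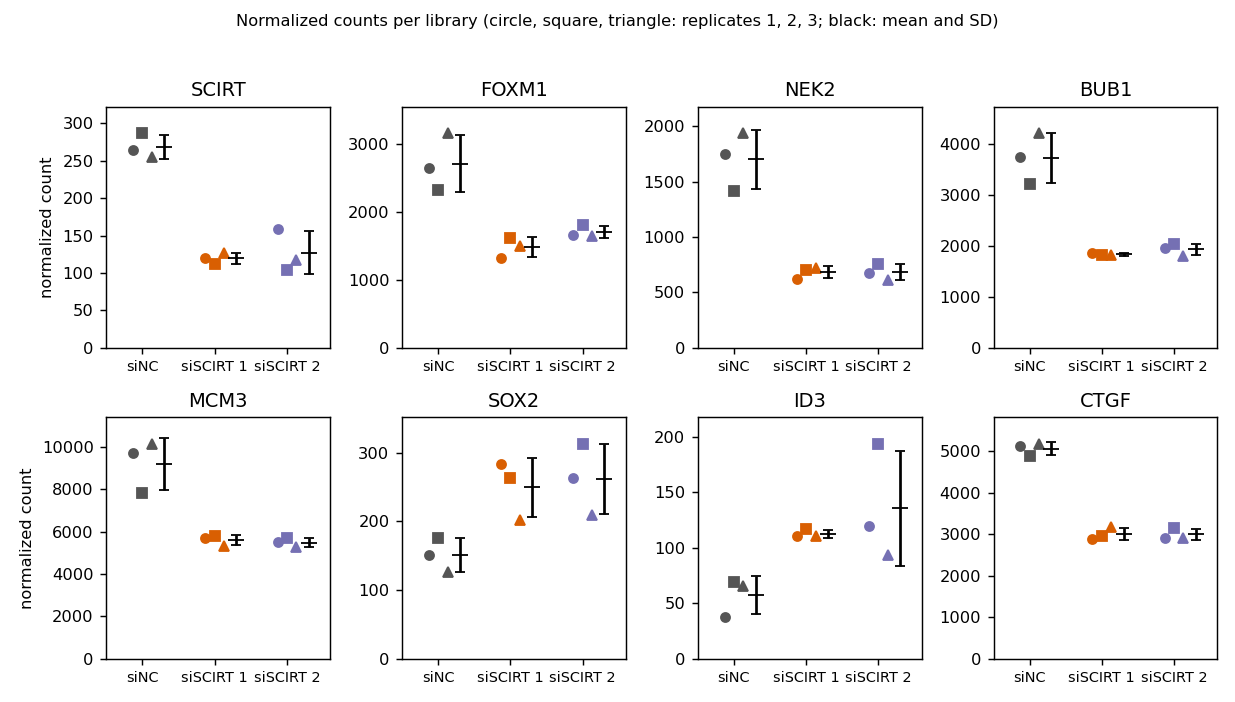
Normalized counts (vertical axis, linear, from 0) of SCIRT and 7 genes in the 9 libraries, by group on the horizontal axis, with replicates as separate symbols and the mean and SD in black. SCIRT, FOXM1, NEK2, BUB1, MCM3 and CTGF lie lower and SOX2 and ID3 higher in all 6 knockdown libraries than in the 3 siNC libraries.

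Most of the changes in the knockdowns were small. A gene was counted as risen or fallen only if the mean of both siRNAs and each siRNA alone passed an adjusted p of 0.05 in the same direction. Of 16607 genes with a mean normalized count of at least 10, 563 rose (3.39%) and 664 fell (4%). On the mean alone 6.82% were higher and 7.58% lower. siSCIRT#1 alone called 4.63% higher and 5.56% lower, and siSCIRT#2 alone 4.49% and 5.05%, and these comparisons share the 3 siNC libraries. The median rise was 1.34-fold and the median fall 1.38-fold. At least 2-fold changes were seen in 20 of the risen and 21 of the fallen genes, and in 126 of all tested genes. The median log2 fold change over all tested genes was 0.0079. The knockdown and control libraries did not overlap in 553 of the 563 and 653 of the 664 genes. Among all 16607 tested genes, 3008 had no overlap in either direction. Passing with each siRNA favours such a separation, so these counts are no further support. Protein-coding genes made up 97.2% of the risen and 97.4% of the fallen genes, against 82% of those tested.

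The number called depended on single libraries. Without siNC replicate 3 the counts were 262 risen and 361 fallen, without siNC replicate 1 they were 350 and 396, and without siSCIRT#1 replicate 2 they were 322 and 441. They were 340 and 448 without siSCIRT#1 replicate 3, and 345 and 438 without siSCIRT#2 replicate 3. The largest counts, 654 and 772, came without siNC replicate 2. On the first principal component, which held 26.2% of the variance, siNC replicate 2 lay at -13.1, nearer the knockdowns (1.1 to 18.8) than the other siNC libraries at -29.3 and -28.7.

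Between siSCIRT#1 and siSCIRT#2 no gene was called (0%). At an unadjusted p under 0.05 limma found 451 genes (2.72%), and the smallest adjusted p was 0.13. edgeR called 0 and DESeq2 called 6. A p that misses the threshold does not show that the siRNAs act alike. Among the largest rises described below, some values were unlike. SCG2, which encodes secretogranin II of secretory granules, had a log2 fold change of 1.48 with siSCIRT#1 and 1.09 with siSCIRT#2. SLC14A1, a urea transporter, had 1.11 and 1.54.

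**Figure D2:**
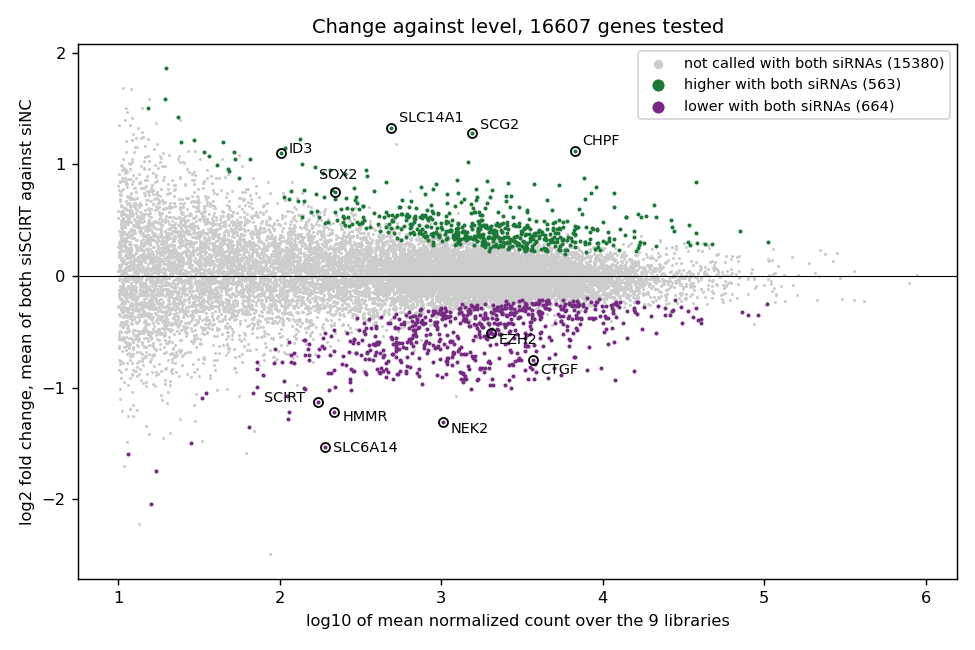
Log2 fold change of the mean of both siRNAs against siNC (vertical axis) by log10 of the mean normalized count (horizontal axis) for 16607 genes, with genes called with both siRNAs in colour (563 higher, 664 lower). Named genes are circled, and most coloured points lie within 1 log2 unit of 0.

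Genes of mitosis fell almost without exception, and their median was the lowest of all lists described here. Of 33 genes of G2 and mitosis, 32 fell and none rose, with a median log2 fold change of -0.85 against 0.0079 over all tested genes. BUB1 was at 3752, 3213 and 4210.1 normalized counts with siNC, at 1866, 1825 and 1820.1 with siSCIRT#1 and at 1957, 2033 and 1811 with siSCIRT#2 (-0.97 ± 0.08, adjusted p = 2.7e-06). Its knockdown libraries lay close together and far below every control. NEK2, which separates the centrosomes before mitosis, was at 1749, 1418 and 1937 with siNC, at 623, 706 and 721 with siSCIRT#1 and at 680.4, 761 and 612 with siSCIRT#2 (-1.31 ± 0.10, adjusted p = 2.6e-06). It had the largest fall of the list, with no overlap between groups. HMMR, a hyaluronan receptor that also binds spindle microtubules, followed at -1.22.

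Genes acting at each step of mitosis were among those that fell. Regulators of entry were lower: CDK1 by a log2 fold change of -0.80, its cyclins CCNB1 by -0.89 and CCNB2 by -0.86, the phosphatase CDC25C by -0.88 and the kinase PLK1 by -0.61. Spindle and kinetochore genes were lower as well, with AURKA, which builds the spindle poles, at -0.92 and CENPF at -0.82. Of the genes of mitotic exit and division, CDC20, the activator of the anaphase-promoting complex, was at -0.86, KIF23 at -0.97 and CEP55, which acts in the final cut between daughter cells, fell 2-fold. The proliferation marker MKI67 fell by 0.93 on the log2 scale. PRC1 (-0.30) and KIF11 (-0.35), motor and bundling proteins of spindle microtubules, had the smallest falls, and each lost its call without 6 of the 9 libraries in turn. The exception was CDC25B, a phosphatase acting on CDK1, at 10190, 9259.8 and 11021 with siNC and 9449 to 10765 in the knockdowns (-0.02 ± 0.06, adjusted p = 0.88).

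Upstream regulators of this program fell too. FOXM1 was at 2652, 2326 and 3162 normalized counts with siNC, at 1332, 1626 and 1506 with siSCIRT#1 and at 1669.8, 1806 and 1645 with siSCIRT#2. Its log2 fold change was -0.76 ± 0.09 (adjusted p = 5.3e-05), and the groups did not overlap. MYBL2, the MYB partner of FOXM1 on mitotic promoters, had -0.86.

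Genes of DNA replication fell by less. Of 34, 32 fell and none rose, with a median log2 fold change of -0.61. MCM3 was at 9687, 7797 and 10111 normalized counts with siNC, at 5674, 5781 and 5337 with siSCIRT#1 and at 5496, 5689 and 5246 with siSCIRT#2 (-0.72 ± 0.07, adjusted p = 1.7e-05). All 6 knockdown libraries lay below the controls. Origin licensing and firing genes were led by MCM10 (-0.86), CDC45 (-0.77) and CDC6 (-0.75). The clamp loader subunit RFC3 had -0.78 and the sliding clamp PCNA -0.55, and the enzymes of nucleotide supply RRM2, TYMS and TK1 had -0.67, -0.61 and -0.66. Of the E2F factors, E2F1 had -0.69, E2F2 -0.71 and E2F8 -0.68, and E2F2 lost its call without 4 of the 9 libraries in turn. SLBP, which binds histone mRNA (-0.16, adjusted p = 0.11), and the G1 cyclin CCNE1 (-0.12, adjusted p = 0.58) were not called.

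Cell cycle RNA also differed among the control libraries. Relative to the siNC mean, the median mitosis gene stood at 0.02, -0.20 and 0.19 on the log2 scale in siNC replicates 1, 2 and 3, and at -0.73 to -0.93 in the 6 knockdown libraries. In siNC replicate 2 all 33 mitosis genes lay below the siNC mean, and in siNC replicate 3 none did. For replication genes the medians were 0.04, -0.22 and 0.18 with siNC and -0.49 to -0.68 in the knockdowns. The list counts were stable against single libraries: 30 to 32 mitosis genes and 24 to 32 replication genes fell with any 1 library left out, the 24 without siNC replicate 3. In bulk RNA, fewer cells in a phase and less RNA per cell cannot be told apart. Together the mitosis and replication genes made up 64 of the 664 fallen genes (9.64%). That share is capped by the length of the lists, with 33 and 34 genes tested. Cell cycle genes outside the lists were not counted, so it does not give the part of the falls that belongs to the cell cycle.

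**Figure D3:**
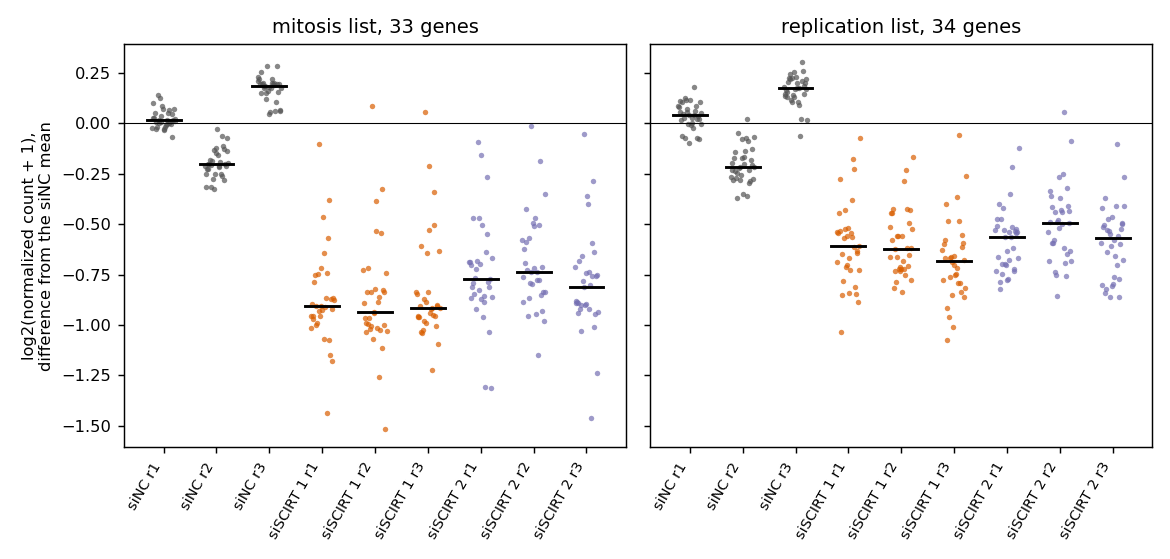
Each point is 1 gene of the mitosis list (left, 33 genes) or the replication list (right, 34 genes), plotted as its log2(normalized count + 1) minus the siNC mean (vertical axis) in each of the 9 libraries (horizontal axis), with the median as a bar. The medians of the knockdown libraries lie between -0.93 and -0.49, below those of every siNC library, and siNC replicate 2 is the lowest control.

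The promoter letters differed between the lists. RefSeq windows could be matched for 27 of the 33 mitosis genes, 29 of the 34 replication genes and 543 of the 664 fallen genes. CHR letters were in 74.1% of the mitosis genes and 6.9% of the replication genes, 31.3% of all fallen genes and 16.4% of the 35116 windows in the table. CCAAT letters were in 88.9%, 58.6%, 59.7% and 34.6% in the same order. E2F-type letters were in 3 of the 27 mitosis genes and 58.6% of the replication genes, in 12.5% of the fallen genes and in 2.74% of all windows. SOX-type letters (CATTGTT or CTTTGTT) were in 7.55% of the fallen genes and 8.22% of all windows. Both strands were searched, no motif contains the letters of another, and a gene with several windows counted once if any held the letters, while the whole-table shares are per window. Fewer of the risen genes (78.9%) and of all tested genes (69.2%) had a window, so a comparison with those sets is void for want of matched genes, and their shares are given as values only. CHR, CCAAT and E2F-type letters were in 62, 164 and 16 of the 444 risen genes with a window, and in 16.1%, 43.0% and 5.33% of the 11494 tested genes with one. The table's windows also include genes that were not tested here. Letters in a window are a description and not a bound site.

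G1 regulators moved less. Of 14, 4 fell and none rose, with a median of -0.07. RBL1, the p107 pocket protein that holds E2F, had -0.64, CDKN2C, an inhibitor of CDK4 and CDK6, had -0.50, CCND1, the cyclin of those kinases, had -0.36 and CDK6 -0.31. The calls of CDK6 and CDKN2C were lost without siNC replicate 3, and those of CCND1 and CDK6 without siSCIRT#2 replicates 1 or 3. Of 12 genes of the HIST clusters, 3 rose, none fell and the median was 0.31. HIST1H2BD was at 1938, 2102 and 1974 normalized counts with siNC and 2644 to 3098 in the knockdowns (0.49 ± 0.06, adjusted p = 8.4e-05). Most histone mRNAs lack the poly(A) tail that this kind of kit selects, so these values describe the tailed part. The calls of HIST1H2AC and HIST2H2BE were lost without siNC replicate 3, that of HIST1H2AC also without 2 other libraries in turn and that of HIST2H2BE without 5 others.

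PRC2 subunits fell in 23.1% and rose in 7.69% of cases, beside 4% and 3.39% of all tested genes. Of 13, EZH2, PHF19 and RBBP7 fell and PHF1 rose, with a median log2 fold change of -0.10. EZH2 was at 2601, 2279.6 and 2699 normalized counts with siNC and 1668 to 1847 in all 6 knockdown libraries, with no overlap (-0.51 ± 0.07, adjusted p = 0.00014). PHF1, an accessory subunit that guides PRC2 to chromatin, was at 4874, 4251 and 4325 with siNC and 5535 to 7120.3 in the knockdowns (0.49 ± 0.08, adjusted p = 0.00049). The calls of PHF19 and RBBP7 were lost without siNC replicate 1 or 3 or siSCIRT#2 replicate 3, which left EZH2 as the only fall. Of 15 genes known as PRC2 targets or repressed through EZH2, 1 rose (TIMP3) and 1 fell (DKK1), with a median of 0.03. TIMP3 lost its call without 7 of the 9 libraries in turn and in edgeR, and DKK1 lost it without siNC replicate 1 and without siSCIRT#1 replicate 2 or 3.

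Of 24 cholesterol synthesis genes, 14 fell and none rose, with a median of -0.32. HMGCS1, which makes HMG-CoA early in the pathway, was at 10743, 10421 and 11033 normalized counts with siNC, at 7076, 6629.9 and 7093 with siSCIRT#1 and at 6747, 6945 and 6912 with siSCIRT#2 (-0.64 ± 0.05, adjusted p = 2.7e-06). The values within each group lay close together, and the groups did not overlap. The squalene epoxidase SQLE had -0.56. INSIG1, which retains the sterol sensor in the endoplasmic reticulum, had -0.61. SREBF2, the factor that drives these genes, was not called (-0.16, adjusted p = 0.058). Without siNC replicate 1 or 3 the count was 9 of 24. Fatty acid genes moved less, with 4 of 16 fallen (ELOVL5, ACLY, FADS1 and ACSL3), none risen and a median of -0.14. The count was 2 without siNC replicate 1 or 3, siSCIRT#1 replicate 2 or 3, or siSCIRT#2 replicate 1 or 3.

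Targets of YAP and TAZ, coactivators that respond to cell shape and attachment, fell in 8 of 21 cases, rose in 1, and had a median of -0.22. CTGF was at 5122, 4883 and 5162 normalized counts with siNC, at 2895, 2951 and 3172 with siSCIRT#1 and at 2918, 3146 and 2917 with siSCIRT#2 (-0.75 ± 0.06, adjusted p = 2.2e-06). CYR61, like CTGF a secreted matricellular protein, had -0.73, ANKRD1 had -0.50 and AMOTL2, which binds YAP, had -0.46. The coactivators themselves, YAP1 (-0.08) and WWTR1 (-0.01), were not called. The count of falls was 4 without siSCIRT#2 replicate 1 and 5 without siNC replicate 3 or siSCIRT#2 replicate 3. TGFB2, on this list as well, was the member that rose.

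Of 21 TGF-beta and BMP genes, 5 rose and 1 fell, with a median of 0.16. Their summed level was 148210 to 162130 normalized counts with siNC and 138950 to 152780 in the knockdowns, with overlap. The ligands BMP4 (0.42), TGFB1 (0.42) and TGFB2 (0.46) and the receptor TGFBR1 (0.35) rose, and the receptor TGFBR2 fell (-0.39). ID3, an inhibitor of basic helix-loop-helix factors and a BMP target, was at 37.9, 68.9 and 65.8 normalized counts with siNC, at 110.2, 117 and 110.2 with siSCIRT#1 and at 119.7, 193 and 93.1 with siSCIRT#2. All knockdown values exceeded the controls (1.10 ± 0.23, adjusted p = 0.0045), but siSCIRT#2 spread widely. ID1 (0.11) and ID2 (0.16), of the same family, were not called. The count of rises was 1 without siSCIRT#1 replicate 3, 2 without siNC replicate 1 or siSCIRT#1 replicate 2, 3 without siNC replicate 3 and 4 to 7 without any other library. ID3 lost its call without siNC replicate 1, without siSCIRT#1 replicate 2 or 3, and with eBayes without trend and robust.

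Of 16 stemness genes, SOX2, NES and SOX4 rose and MYC fell, with a median of 0.03. SOX2 was at 151, 176 and 127 normalized counts with siNC, at 284, 264 and 202 with siSCIRT#1 and at 263, 312 and 209.5 with siSCIRT#2. Replicate 3 was the lowest of each group, and the groups did not overlap (0.75 ± 0.15, adjusted p = 0.0042). The call was lost without siNC replicate 3, siSCIRT#1 replicates 1 or 2, or siSCIRT#2 replicate 2, where 1 siRNA alone missed the threshold. With eBayes without trend and robust the calls of SOX2, NES and SOX4 were lost as well. SOX2 lies inside a longer noncoding gene of the same strand, so reads of that gene could enter its count. NES, an intermediate filament protein of progenitor cells, had 0.35, SOX4 0.30 and MYC -0.25. MYC lost its call without siNC replicate 1 or 3, siSCIRT#1 replicate 3 or siSCIRT#2 replicate 3, and with eBayes without trend and robust. None of the 16 rose without siNC replicate 3 or siSCIRT#1 replicate 2, 1 rose without siNC replicate 1 or siSCIRT#1 replicate 3, and 2 rose without siSCIRT#1 replicate 1 or siSCIRT#2 replicate 2 or 3. NANOG, PROM1 and ALDH1A1, common stem cell markers, did not pass the filter or were not listed, and POU5F1 (-0.46, adjusted p = 0.37) and CD44 (0.12, adjusted p = 0.22) were not called.

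**Figure D4:**
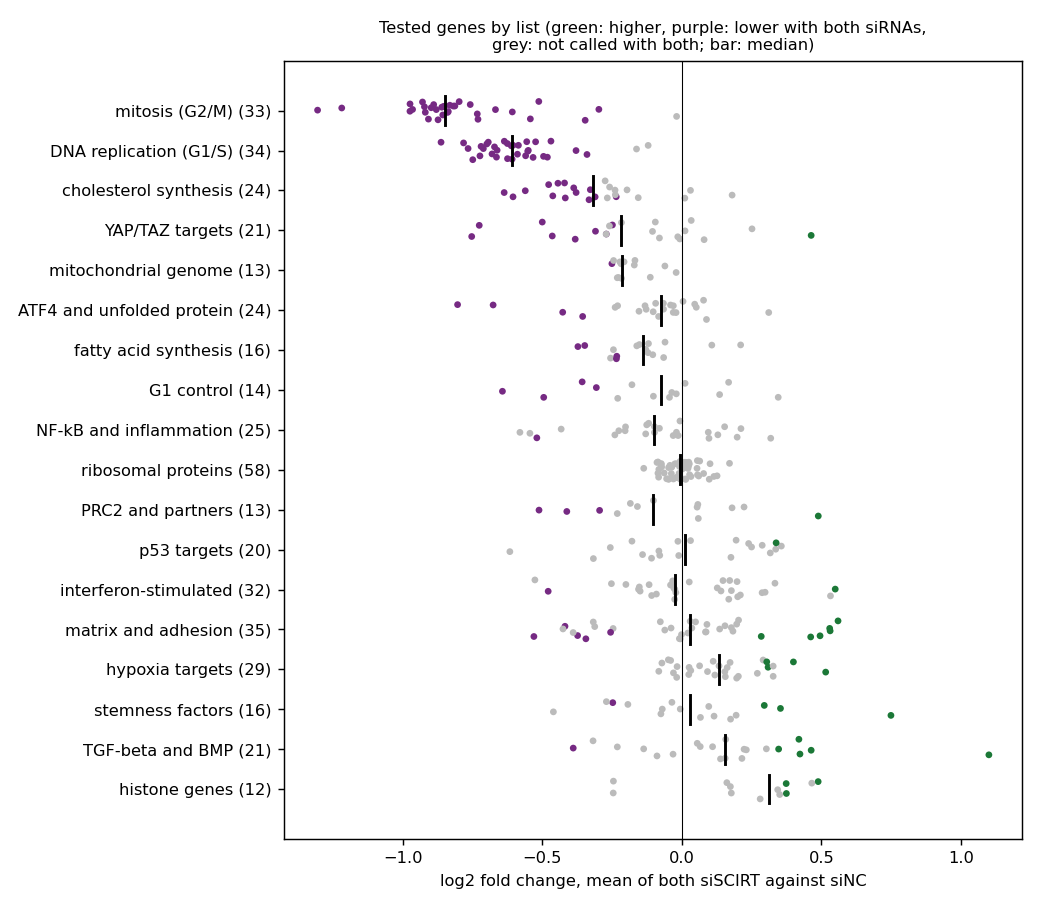
Log2 fold changes of the mean of both siRNAs against siNC (horizontal axis) for the tested members of 18 lists (vertical axis, number of members in brackets), with the median of each list as a bar. The medians run from -0.85 for mitosis to 0.31 for histone genes, and ribosomal protein genes lie close to 0.

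Matrix and adhesion genes changed in both directions. Of 35, 6 rose and 5 fell, with a median of 0.03. COL6A1, a chain of microfibrillar collagen, was at 13217, 14096 and 12804 normalized counts with siNC and 18106 to 20178 in the knockdowns (0.53 ± 0.05, adjusted p = 1.7e-05). COL5A1 (0.56), TNC (0.53), COL6A2 (0.49) and ITGB4, the integrin chain of hemidesmosomes (0.46), rose with it. The basement membrane collagens COL4A1 (-0.53) and COL4A2 (-0.37), the matricellular gene THBS1 (-0.42), the integrin chain ITGB1 (-0.34) and the plasminogen activator PLAU (-0.26) fell. The falls numbered 3 without siSCIRT#1 replicate 2 or 3, and PLAU lost its call without 7 of the 9 libraries in turn. COL6A1 and COL4A1 kept their opposite directions and their calls with any 1 library left out.

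Of 29 hypoxia and glycolysis genes, 4 rose (CA9, VEGFA, PFKFB4 and P4HA2), none fell, and the median was 0.13. The summed level of the list overlapped between groups, at 1308300 to 1518500 normalized counts with siNC and 1384900 to 1740500 in the knockdowns. VEGFA, the vascular growth factor, was at 61112, 63190 and 51419 normalized counts with siNC and at 69707 to 82785 in the knockdowns (0.40 ± 0.08, adjusted p = 0.0024). Without siNC replicate 3 no member of the list was called, and the count ran from 1 (without siSCIRT#1 replicate 1 or siSCIRT#2 replicate 3) to 6 (without siNC replicate 2 or siSCIRT#2 replicate 2) in the other fits. Genes of the ATF4 response and protein folding fell in 4 of 24 cases, with a median of -0.08. The 4 serve serine and one-carbon metabolism (PSAT1 at -0.80, PHGDH at -0.43, MTHFD2 at -0.36) or cystine uptake (SLC7A11 at -0.68), and none encodes a chaperone. The count was 2 without siNC replicate 1 or 3 or siSCIRT#1 replicate 2 or 3, each of which lost PHGDH and MTHFD2, and 6 without siNC replicate 2. PSAT1 was at 2252, 1801 and 2074 with siNC and 1032 to 1247 in the knockdowns.

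Transcripts of the mitochondrial genome were all below 0, though 1 of 13 (MT-ND1) was called with both siRNAs and that call was lost whichever 1 library was left out. Their median was -0.22 and their sum was 2822900 to 3062400 normalized counts with siNC and 2539600 to 2787900 in the knockdowns, without overlap. The part of this difference in the other results was not tested. None of 58 ribosomal protein genes was called in limma, 0 of them at an unadjusted p under 0.05 for the mean (median -0.01). For these, 0 was also the count in every alternative run.

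The 15 largest falls were ranked among called genes with a mean of at least 100 and no overlap. Clone-based, LOC and pseudogene names were left out, SCIRT (-1.13) among them. The 15 held mitotic genes and genes with no direct part in division. SLC6A14, a transporter of neutral and basic amino acids, was at 331, 309 and 374 normalized counts with siNC, at 109, 125 and 124 with siSCIRT#1 and at 118, 109.9 and 112 with siSCIRT#2. This fall (-1.53 ± 0.12, limma adjusted p = 2.7e-06) was the largest that met this rule. Called genes outside the rule reached -2.04. SERPINB2, an inhibitor of plasminogen activators, was at 195, 213 and 143 with siNC and 54.3 to 121 in the knockdowns (-1.28 ± 0.23). DDAH1, which degrades methylated arginines, was at 2284, 2321 and 2339 with siNC and 1055 to 1243 in the knockdowns (-1.01 ± 0.07). The ligand TNFSF18 (-1.21), the matrix protein ADAMTSL3 (-1.05), the kinase WNK4 and the potassium channel subunit KCNAB3 (-0.99) were also among the 15 largest falls. So were NEIL3, a DNA repair glycosylase (-1.02), FBXO43, an inhibitor of the anaphase-promoting complex (-0.99), and CEP55. FAM72B and FAM72D (-1.01 and -1.02) are near-identical copies, and TMPO-AS1 (-1.07) overlaps TMPO on the other strand, so their values are uncertain. Single libraries decided the calls of ADAMTSL3, FAM72B, KCNAB3 and TNFSF18, all 4 of which were lost without siNC replicate 3.

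The largest rises were in genes of varied roles. SLC14A1 was at 191, 297 and 246 normalized counts with siNC, at 507, 566 and 498 with siSCIRT#1 and at 646, 802 and 668 with siSCIRT#2 (1.33 ± 0.12, adjusted p = 8.5e-06). SCG2 was at 755, 792 and 813 with siNC, at 2309, 2259 and 2016 with siSCIRT#1 and at 1560.5, 1729 and 1742 with siSCIRT#2 (1.28 ± 0.07, adjusted p = 1.3e-07). For both genes every knockdown library exceeded every control by a wide margin. CHPF, which polymerizes chondroitin chains, was at 4176, 4519.6 and 2731 with siNC and 7407 to 9126 in the knockdowns (1.12 ± 0.13), with siNC replicate 3 the lowest control. The adhesion protein NEGR1 (1.23), the water channel AQP5 (1.14), the BMP antagonist CHRDL1 (1.02) and complement factor C7 (0.95) followed. The nuclear receptor NR4A3 (0.92), the vessel ligand ANGPT1 (0.90), the iron reductase STEAP3 (0.88), the tetraspan protein EMP2 (0.86), the mitochondrial topoisomerase TOP1MT (0.85), XKRX (0.92) and the noncoding LINC00886 (1.00) completed the list with ID3. The call of LINC00886 was lost without siNC replicate 3, siSCIRT#1 replicate 3 or siSCIRT#2 replicate 2.

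The genes that changed after SCIRT knockdown were then followed in the other libraries of the series, which have their own controls and were normalized separately. These groups have 2 libraries each, and each table was fitted alone with the same limma test. In the siEZH2 knockdown, 3.9% of the genes tested there were higher and 2.94% lower than with siNC. Of 662 genes that fell with SCIRT knockdown and were tested there, 34.4% were higher and 1.51% lower, with a median log2 fold change of 0.29. Of 560 that rose, 1.25% were higher and 7.68% lower. The mitosis list had a median of 1.03 there, with 30 of 33 genes higher and 1 lower, against -0.85 with SCIRT knockdown. FOXM1 had 0.92 with siEZH2 and -0.76 with siSCIRT, while EZH2 itself had -0.92 and -0.51. The normalized counts of the controls of the 2 experiments were far apart, but they are not on 1 scale. The siNC libraries held 34296110 and 37557787 reads in the siEZH2 experiment and 57218620 to 62218847 in the SCIRT experiment. The part of depth in the gap was not tested. FOXM1 was at 248 and 228 normalized counts with the siNC of the siEZH2 experiment and at 463 and 441 with siEZH2. In the SCIRT experiment it was at 2326 to 3162 with siNC and 1332 to 1806 in the knockdowns. NEK2 was at 118 and 95.4 with that siNC and at 231 and 194 with siEZH2, below all its values in the SCIRT experiment. The part of this gap in the unlike signs, and the differences between the 2 knockdowns, were not tested.

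Spheres of untransfected cells were compared with adherent cells at 16 h (27.4% of genes higher, 26.5% lower) and at 5 d (26.3% higher, 28.9% lower), with medium and serum differing as well. Of 645 genes that fell with SCIRT knockdown and were tested there, 72.2% were lower and 10.7% higher in 16 h spheres (median -0.73), and 58.4% were lower and 15.3% higher in 5 d spheres (median -0.46). Of 519 that rose, 47.4% were higher and 17% lower at 16 h, and 39.3% and 22.5% at 5 d. Mitosis genes were lower in 29 of 33 cases at 16 h and in 28 at 5 d, and replication genes in 33 and 26 of 34. SCIRT itself was higher in spheres, by 3.10 and 3.97. It was at 3.8 and 3.0 normalized counts in adherent cells, 45.8 and 29.3 at 16 h and 62.1 and 73.9 at 5 d. The adherent values are near the floor, so the size of this rise is uncertain. Single genes did not keep to 1 pattern. SCG2 had 1.95 at 16 h and MUC1, a membrane mucin that rose by 0.78 in the knockdown, had 3.41, while BMP4, which also rose in the knockdown, had -2.14.

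**Figure D5:**
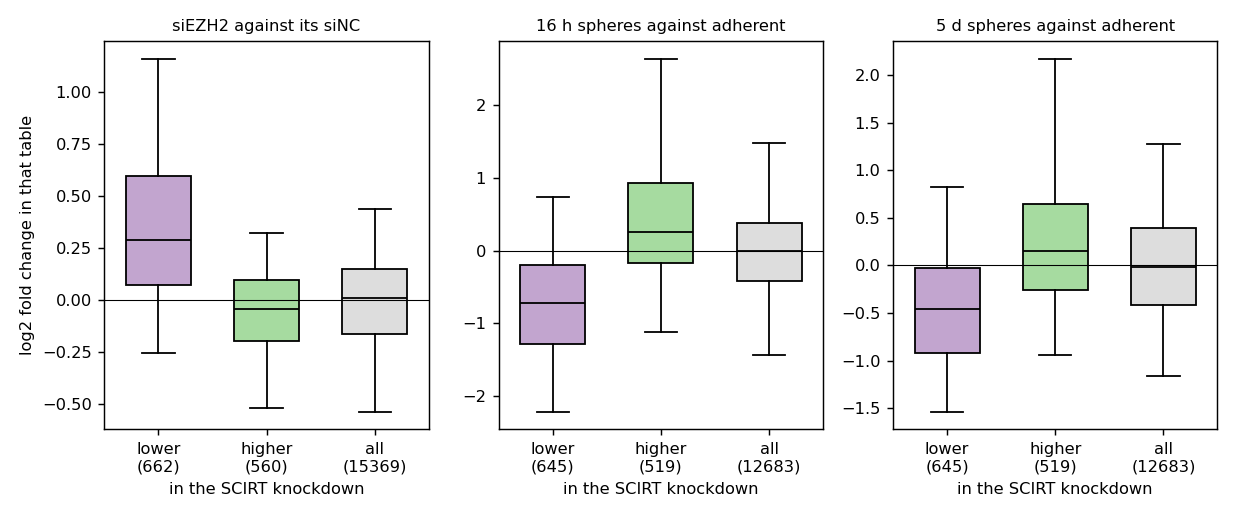
Log2 fold changes (vertical axes, a different range in each panel) in the siEZH2 knockdown and in 16 h and 5 d spheres, for genes that fell or rose with SCIRT knockdown and for all genes tested in both tables (horizontal axis, number in brackets). Boxes give quartiles and median and whiskers the 5th and 95th percentiles, and the median of the fallen genes is 0.29, -0.73 and -0.46 from left to right.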

How the data were processed

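RNA of 9 MDA-MB-231 libraries was compared: siNC, siSCIRT#1 and siSCIRT#2, 3 each, grouped by sample titles. Total RNA was extracted with TRI Reagent and prepared with the TruSeq RNA v2 kit, per the labels' protocols. CASAVA 1.4, TopHat2, Partek and hg19 are named in the submitters' processing notes, and the counting program is not given in the sources used here. The deposited siSCIRT and culture tables hold log2 values that the authors made with DESeq2's variance-stabilizing transform, which has an exact inverse. The deposited siEZH2 table holds linear signal, meaning normalized counts. The log2 values were inverted to normalized counts, and 100% of the values in every library came out as whole reads after division by the library's step (tolerance 0.05), which gave depth and served edgeR and DESeq2. Column names give a number for siSCIRT#2 alone, so the unnumbered siRNA columns were read as siSCIRT#1, which is an inference. The design had assumed linear values throughout.

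Genes with a mean of at least 10 were fitted with limma 3.58.1 (R 4.3.3, eBayes with trend and robust) on log2(normalized count + 1), all 9 libraries together, two-sided, with Benjamini-Hochberg adjustment over all tested genes. The siEZH2 and culture tables, with 2 libraries per group, were each fitted alone in the same way. Within the 9 libraries there were 4 comparisons: the mean of both siRNAs and each siRNA against siNC, and siSCIRT#1 against siSCIRT#2. The scripts were tested on simulated data. The fit had no term for the replicate number. Named genes were the 15 largest rises and falls called with both siRNAs and with no overlap. They had 100 or more normalized counts on average in siNC or in the knockdowns. Clone-based, LOC and pseudogene names were left out of these. Added to them were SCIRT, EZH2, FOXM1, SOX2 and up to 4 members per list by adjusted p, with others needed to describe a list. The members and lists were chosen with earlier results of these data known, so the lists are described by counts and medians, without a set test. Alternatives were another pseudocount (8), no filter on low genes, a filter at a mean of 50, quantile-normalized values, plain eBayes, a replicate block, fits of only the groups compared, the deposited transformed values, edgeR 4.0.16, DESeq2 1.42.0 and each library left out in turn. Promoter windows came from RefSeq (GRCh38.p14), matched by Ensembl identifier or symbol for 11494 of 16607 tested genes. No coordinates of the files' own build were used here.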

Additional observations from a re-analysis of the deposited data

How the results depend on the processing

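None of the 131 genes that were both named and called changed direction under the alternatives run, while 5 that were not called (AXL, CDC25B, COL1A1, DCN and WWTR1) did. The calling rule asks for 1 direction with both siRNAs in these same libraries. The kept direction of called genes was thus largely set in advance and is no further support. List medians were not recomputed. With eBayes without trend and robust, the genes called higher on the mean were 744, those higher and lower with siSCIRT#1 were 432 and 577, with siSCIRT#2 396 and 474, and with both 306 and 394. The labels do not say that replicate numbers mark shared cultures, so the libraries were not treated as paired. Same-numbered libraries deviated together with correlations of 0.02 to 0.30, and 5 of 9 libraries correlated best with their own number. On the second principal component (17.8% of the variance) the replicate 1 libraries lay at 9.71, 29.3 and 17.4 and the other 6 at -16.1 to -1.95, a hint of a shared effect of that number. With the replicate block the counts rose to 2010 higher and 2020 lower on the mean, 1543 and 1601 with siSCIRT#1, 1552 and 1558 with siSCIRT#2, and 1158 and 1188 with both, which held all 563 and 664 genes of the fit without it. Between the siRNAs the replicate block called 7 genes lower with siSCIRT#1, no filter called 2, a fit of only those groups called 1, and DESeq2 called 1 higher and 5 lower. For the count with both, DESeq2 gave 767 and 884 and edgeR 560 and 671. With 1 library left out in turn, the genes called ranged from 567 to 1235 higher and 675 to 1357 lower on the mean, 363 to 843 and 523 to 987 with siSCIRT#1, 334 to 860 and 435 to 965 with siSCIRT#2, 262 to 654 and 361 to 772 with both, and 0 to 1 between the siRNAs. Of the 131 genes, 84 kept the call in all of these fits and 47 lost it in at least 1, and 45 lost it with eBayes without trend and robust. The causes were not tested. With 3 libraries per group, leaving out 1 changed some of these counts by over 1.5 times and others by less.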

Other observations

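Several further lists for this tissue are described here by their called members. Over all tested genes 3.39% rose and 4% fell. In these lists the share that rose ran from 0% to 12.5% (mesenchymal). The share that fell ran from 0% to 25% (markers of the line). Of 20 p53 targets PLK3, a stress kinase, rose (0.34) and none fell, with a median log2 fold change of 0.01, and PLK3 lost its call without siSCIRT#1 replicate 2. Of 19 BCL2 family and related genes, BMF, a BH3-only protein that binds BCL2, rose. None fell with both siRNAs, but 3 were lower on the mean alone, among them BCL2A1 (-0.98) and BCL2 (-0.47). BMF was at 1328, 1465 and 1405 normalized counts with siNC and 2211 to 2528 in all 6 knockdown libraries (0.77 ± 0.07, limma adjusted p = 5.5e-06), and the median of the list was 0.04. Of 15 epithelial genes MUC1 rose. It was at 985, 1345 and 1028 with siNC and 1618 to 2155 in the knockdowns, without overlap (0.78 ± 0.10, limma adjusted p = 0.00018). Of 16 mesenchymal genes only TGFB1 and TGFB2 rose, none did without siSCIRT#1 replicate 3, and 1 did without siNC replicate 1 or 3 or siSCIRT#1 replicate 2. Among 13 NOTCH genes LFNG, which adds sugars to NOTCH receptors, rose (0.48), and the median was 0.19. Among 22 WNT genes the ligand WNT7B (0.50) and the factor LEF1 (0.35) rose and the antagonist DKK1 (-0.47) fell. Of these, WNT7B kept its call with any 1 library left out, while LEF1 lost it without 6 of the 9 and DKK1 without 3 of the 9.

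Of 25 cytokine and NF-kappaB genes IL6 fell, from 4135, 3661 and 3253 normalized counts with siNC to 2306 to 2972 in the knockdowns (-0.52 ± 0.09, limma adjusted p = 0.002), and none rose. The call of IL6 was lost with eBayes without trend and robust. Of 32 interferon-stimulated and sensor genes CXCL10 rose (0.55) and TLR3 fell (-0.48), with a median of -0.02, and TLR3 lost its call without 8 of the 9 libraries in turn. No gene of 13 of the RNA interference machinery was called with both siRNAs in limma on all 9 libraries or in edgeR. DESeq2 called 2 higher, as did limma with the replicate block and without siNC replicate 2 or siSCIRT#1 replicate 1, and limma called 1 with a pseudocount of 8, with no filter or with a mean of at least 50. For the mean of both siRNAs 8 of the 13 had an unadjusted p under 0.05 and 2 an adjusted one, AGO4, an Argonaute protein (0.40), and TNRC6C, a partner of Argonautes (0.43). AGO4 missed with siSCIRT#2 and TNRC6C with siSCIRT#1. Of 26 early genes and feedback inhibitors of ERK signalling HBEGF, EPHA2 and SPRY1 fell, none did without siNC replicate 1, and 1 did without siNC replicate 3, siSCIRT#1 replicate 2 or siSCIRT#2 replicate 1 or 3. Of 25 autophagy and lysosome genes ULK1, TFEB and CTSD rose, by 0.31, 0.47 and 0.31, none did without siNC replicate 3 or siSCIRT#1 replicate 2, and 1 did without siSCIRT#1 replicate 1 or siSCIRT#2 replicate 1 or 3. Of the 8 markers of the line, MSN (-0.32) and CAV1 (-0.29) fell, and CAV1 lost its call without siNC replicate 1 or 3 or siSCIRT#1 replicate 2 or 3 and with eBayes without trend and robust.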
